A study of Rattus norvegicus with 10 samples.

Results

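The complement, coagulation and fibrinolysis genes of the rat were followed in rupture-prone intracranial aneurysm (IA) lesions and in the rest of the circle of Willis, the ring of arteries at the base of the brain, called control here. The set of 41 genes is defined by gene name, and its rule uses no measured value, although it was drawn up with earlier results of these data known. It holds components, regulators and receptors of complement, coagulation factors with their regulators, and the plasminogen system. Of these, 40 had a row of that name among the 22081 genes of the deposited table, and Cfb, which encodes complement factor B, did not. Reads on the gene were found for 38 of the 40. F7 and Procr, which encode factor VII and the protein C receptor, had 0 reads in all 10 samples, which allows up to 0.0975 CPM (reads scaled to library size, as parts in 1000000) over the aneurysms and up to 0.132 CPM over the controls, taken as 3 reads over a group.

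Both groups of 5 samples came from wild-type female Sprague-Dawley rats that underwent 1 procedure at 10 weeks of age. Both ovaries were removed, 3 arteries of the head and neck were ligated (left carotid, right external carotid, right pterygopalatine), and hypertension was induced by tying off the left renal artery and by a diet with 8% salt that also held 3-aminopropionitrile (0.12%), an inhibitor of lysyl oxidase. The lesions were labelled as rat intracranial aneurysm and the rest of the artery as rat control intracranial artery, and both were taken on day 63. Since both pieces came from the same operated animals, the circle of Willis carried every treatment of the lesions and was no untreated artery. Samples are numbered 4 to 8 in each group.

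Complement is a cascade of plasma proteins in which C1q, bound to its proteases C1r and C1s, starts the classical pathway, MASP proteases start the lectin pathway, and C3 and factors B and D run the alternative pathway. All 3 routes cleave C3 and then C5, which releases the peptides C3a and C5a for receptors on leukocytes and leaves C5b to build the membrane attack complex with C6 to C9. Coagulation ends in thrombin and cross-linked fibrin, and fibrinolysis removes fibrin by plasmin, which tissue-type or urokinase-type plasminogen activator cuts from plasminogen. Most of these proteins reach the vessel wall in plasma from the liver, while the C1q chains are known to be made mainly by macrophages.

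Gene reads (exon plus intron reads) numbered 4513515 to 7352626 per aneurysm library and 3017269 to 5692715 per control library. Aneurysm 8 stood apart, with a TMM factor of 0.339 against 0.819 to 1.50 in the other 9 samples. TMM is a scaling that sets the bulk of genes equal between libraries. Markers of macrophages (10 of 10 with reads in both groups) summed to 110 to 6600 CPM in the aneurysms and 38.9 to 146 CPM in the controls, with 4300, 6600 and 1040 CPM in aneurysms 5, 6 and 7. Fibroblast markers (5 of 5 with reads in both groups) summed to 307 to 19700 against 49.8 to 381 CPM, and smooth muscle markers (6 of 6) to 284 to 696 against 366 to 1020 CPM. Astrocyte markers (3 of 5 with reads in the aneurysms and 5 of 5 in the controls) summed to 3.26 to 192 against 389 to 762 CPM, and neuron markers (8 of 8 in both) to 2.72 to 127 against 125 to 775 CPM. The neutrophil markers S100a9, Mpo, Elane and Camp had 0 reads in every sample, and the whole list of 9 (3 detected in aneurysms, 4 in controls) summed to at most 9.07 CPM in the aneurysms and 21.3 CPM in the controls. Fewer cells of a type and less RNA per cell cannot be told apart in such tissue samples.

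Among the members, C1qc, which encodes the C chain of C1q, was higher in the aneurysm lesions, and no other member passed the test. It was 1 of 38 members, beside 97 of 16700 genes called higher in all (0.581%). The test was the quasi-likelihood test of edgeR on gene reads, with p-values adjusted over all genes by Benjamini-Hochberg and a threshold of 0.05. No member was lower with edgeR (0 of 38, beside 33 of 16700 genes, 0.198%), 0 were lower at an unadjusted p under 0.05, where 7.26% of all genes were, and 0 were lower with DESeq2 or limma-voom. DESeq2 called 4 members higher on gene reads (C1qc, C3ar1, F5 and Plau), beside 1.56% of all genes.

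On exon reads alone, 0 of 31 members passed with edgeR in either direction, beside 0.141% of 12722 genes called higher and 0.0943% called lower. At an unadjusted p under 0.05, 8 of the 31 members were higher and 2 lower on exon reads, beside 13% and 13.3% of all genes. DESeq2 and limma-voom each called C1qc and C5ar1 higher there (beside 0.597% and 0.747% of all genes), and both called 0 members lower. On gene reads, 9 of 38 members (23.7%) were higher at an unadjusted p under 0.05, beside 8.14% of all genes. A positive difference was fitted for 25 of 38 members (65.8%), beside 52.4% of all genes, and a negative one for 13, beside 47.6%. The median log2 fold change of the 38 members was 1.58, beside 0.10 over all 16700 genes. With genes that had no reads in a group set to 3 reads, the medians were 1.83 over 36 members and 0.17 over all genes with more than 3 reads in a group. In no member did the CPM of the 5 aneurysms lie wholly above or wholly below the controls, which was the case for 0.389% and 0.82% of all genes.

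**Figure D1:**
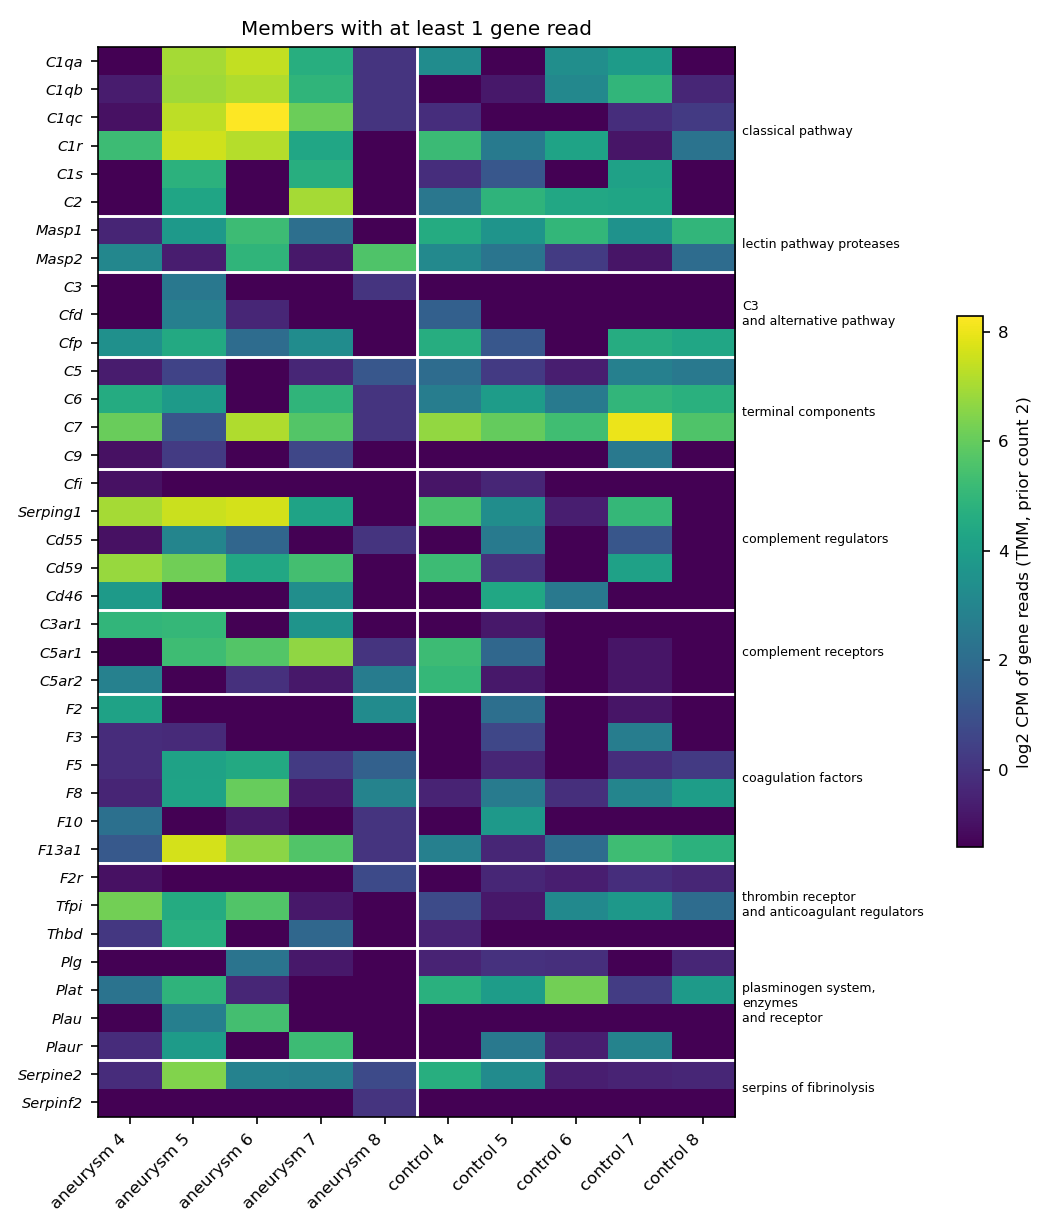
Log2 CPM of gene reads (TMM-scaled, prior count 2) of the 38 members with reads, by role, in aneurysms 4 to 8 and controls 4 to 8; brighter is higher. The brightest cells of C1qa, C1qc and F13a1 sit in aneurysms 5 to 7, those of C1r and Serping1 in aneurysms 4 to 6, aneurysm 8 is dark in nearly every row, and C7 is bright in both groups.

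The members were detected unevenly across the aneurysms. A minimum of 10 exon reads was reached by 5, 22, 15, 11 and 0 of the 40 members in aneurysms 4 to 8, that is for 12.5%, 55.0%, 37.5%, 27.5% and 0%, where all genes gave 14.4%, 34.4%, 14.5%, 16.6% and 3.36%. In controls 4 to 8 the members stood at 22.5%, 20.0%, 15.0%, 15.0% and 7.5%, and all genes at 19.0%, 19.1%, 18.3%, 16.6% and 12.1%. The members thus exceeded the share of all genes in aneurysms 5, 6 and 7 and stayed below it in aneurysms 4 and 8. Of 27 members with at least 10 exon reads in all, 10 had their highest exon CPM in aneurysm 5, 7 in aneurysm 6 and 3 in aneurysm 7, or 37.0%, 25.9% and 11.1%, where 20.1%, 10.4% and 8.47% of all such genes did. The 40 members summed to 24797 exon reads in the aneurysms and 2363 in the controls.

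Per kilobase of annotated exon, and summed over the 5 aneurysms without scaling, the members with the most exon reads were C1qc (3400), C1qa (2280), C1qb (2020), Serping1 (2000), Cd59 (1200), C1r (1170) and F13a1 (648). In the controls the order on the same scale was Serping1 (245), C1qb (192), C1qa (168), Cd59 (144), C1r (113), Plat (88.1) and Masp1 (74.9), with C1qc at 5.50. Neighbours in these orders were not tested, since each sum rests on few libraries. C3 (10.8 and 0) and Plg (7.25 and 0) were near the bottom of both, and C5 had 0 exon reads.

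The classical pathway was the role in which most members had a positive difference (6 of 6, median log2 fold change 2.74), with 1 passing the test and 4 at an unadjusted p under 0.05; it was 5 of 6 without aneurysm 7 (median 2.94), with limma-voom (2.66) and with the replicate block (2.65). The A, B and C chains of C1q, which fold together into the recognition molecule, are encoded side by side on chromosome 5 of Rnor6 in a stretch of 17698 bases (155246446 to 155264143) in the order C1qb, C1qc, C1qa, with no other annotated gene inside. The promoters of C1qa and C1qb are shown because these chains had most of their reads in aneurysms 5, 6 and 7; the third, of C1qc, was not analysed here. They are RefSeq sequences of the build GRCr8, with 250 bases before and 50 after the start, read on the minus strand 5′ to 3′ (C1qa at chr5:154419884-154420183 and C1qb at chr5:154407778-154408077). Capitals mark the 50 bases from the annotated start on. A promoter of that length was found in the table for 27 of the members.
C1qa: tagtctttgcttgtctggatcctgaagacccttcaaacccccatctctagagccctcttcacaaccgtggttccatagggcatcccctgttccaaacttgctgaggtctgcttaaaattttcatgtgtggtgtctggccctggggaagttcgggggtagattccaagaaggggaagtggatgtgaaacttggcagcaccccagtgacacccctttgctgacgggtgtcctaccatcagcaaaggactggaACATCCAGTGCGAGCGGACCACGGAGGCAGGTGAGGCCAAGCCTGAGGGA
C1qb: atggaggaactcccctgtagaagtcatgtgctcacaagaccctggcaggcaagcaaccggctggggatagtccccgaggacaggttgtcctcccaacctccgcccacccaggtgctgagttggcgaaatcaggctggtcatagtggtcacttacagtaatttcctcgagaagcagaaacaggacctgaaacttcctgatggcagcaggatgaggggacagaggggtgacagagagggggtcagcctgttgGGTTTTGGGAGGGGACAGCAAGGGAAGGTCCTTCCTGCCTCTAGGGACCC

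C1qc (chromosome 5, 155255004 to 155258392) had 1, 1757, 1604, 346 and 1 gene reads in aneurysms 4 to 8 and 3, 0, 0, 3 and 2 in controls 4 to 8. Aneurysms 5, 6 and 7 lay far above every control, and aneurysms 4 and 8 lay among them. The aneurysms stood at 108 ± 131 CPM and the controls at 0.370 ± 0.358 CPM (SD, n = 5 each). Its log2 fold change was 8.15 (standard error 1.47; edgeR, adjusted p = 2.35e-05), and the summed reads gave a ratio of 342 after scaling (95% counting interval 173 to 792). On exon reads the log2 fold change was 7.89 (standard error 2.13, adjusted p = 0.0649), which missed the threshold, and ranks of the CPM did not separate the groups (two-sided exact permutation test, p = 0.0873; adjusted over all genes by this test, 0 genes passed). The call on gene reads was kept when any 1 of the 10 samples was left out. It was lost with limma-voom (adjusted p = 0.171) and with the shared sample number as a replicate block (log2 fold change 6.35, edgeR, adjusted p = 0.678). With that block 0 members were called, beside 18 genes higher in all (0.108%).

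The other C1q chains were highest in aneurysms 5 and 6 and also had reads in the controls. C1qa had 0, 1390, 869, 127 and 1 gene reads in aneurysms 4 to 8 and 55, 0, 36, 85 and 0 in controls 4 to 8 (log2 fold change 3.22, standard error 1.32, adjusted p = 0.159 from edgeR). C1qb, given here as the third chain although it falls outside the rule for named members, had 2, 1305, 724, 154 and 1 against 0, 1, 30, 179 and 1, with control 7 at 31.0 CPM beside 30.6 CPM in aneurysm 7 (log2 fold change 2.86, standard error 1.34, adjusted p = 0.253 from edgeR). In the controls C1qc took 8 of 395 C1q reads (2.03%, exact 95% interval 0.878% to 3.95%), against 3709 of 8282 in the aneurysms (44.8%, 43.7% to 45.9%). Control 7 held 267 of the control reads, and without it the share was 5 of 128 (3.91%, 1.28% to 8.88%); control 8 had 2 of C1qc among 3. These intervals cover counting error only, and reads without molecular identifiers are not independent molecules. Of the C1q reads, 81 spanned an exon junction, all of C1qa in aneurysm 5.

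**Figure D2:**
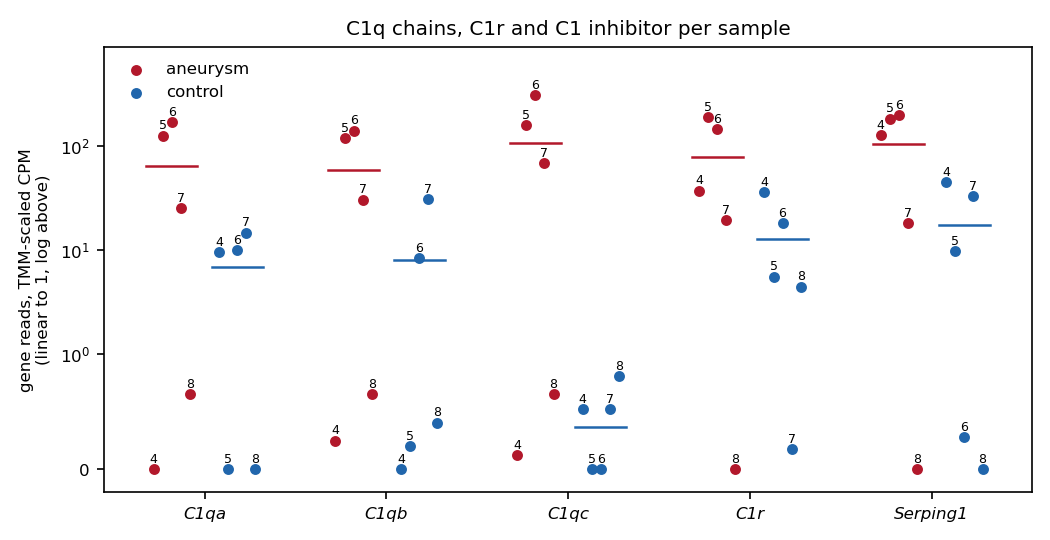
TMM-scaled CPM of gene reads of the C1q chains, C1r and Serping1 (y axis linear to 1 and logarithmic above), 1 point per sample with its number, with the group mean as a line. For C1qc, aneurysms 5 to 7 sit between 68.7 and 312 CPM while all controls stay at or below 0.810; for C1r and Serping1 the groups overlap more.

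The summed CPM of the C1q chains, 405, 622 and 124 in aneurysms 5, 6 and 7, was high in the same 3 lesions as the sums of the macrophage and fibroblast marker lists. Single markers did not all go with the sums. Lyz2, Cd68, Laptm5 and Col1a1 did, but Cd163 had 128, 1 and 0 reads in aneurysms 5, 6 and 7 and 194 and 195 in controls 4 and 5. Mrc1 had 448 reads in aneurysm 5, but 3 and 29 in aneurysms 6 and 7 against 59 and 132 in controls 6 and 7. Pdgfra had 589 reads in aneurysm 5, but 0 and 119 in aneurysms 6 and 7 against 490 and 751 in controls 4 and 7. In aneurysms 4 and 8 the C1q sum was 0.373 and 1.96 CPM, and the macrophage markers summed to 184 and 110 CPM. Microglia markers summed to 0.124 to 52.6 CPM in the aneurysms (4 of 5 with reads) and 0.557 to 19.2 CPM in the controls (3 of 5), with P2ry12 at 0 reads in every sample and Cx3cr1 at no more than 2 reads in any. The part of cell content in the C1q difference was not tested.

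**Figure D3:**
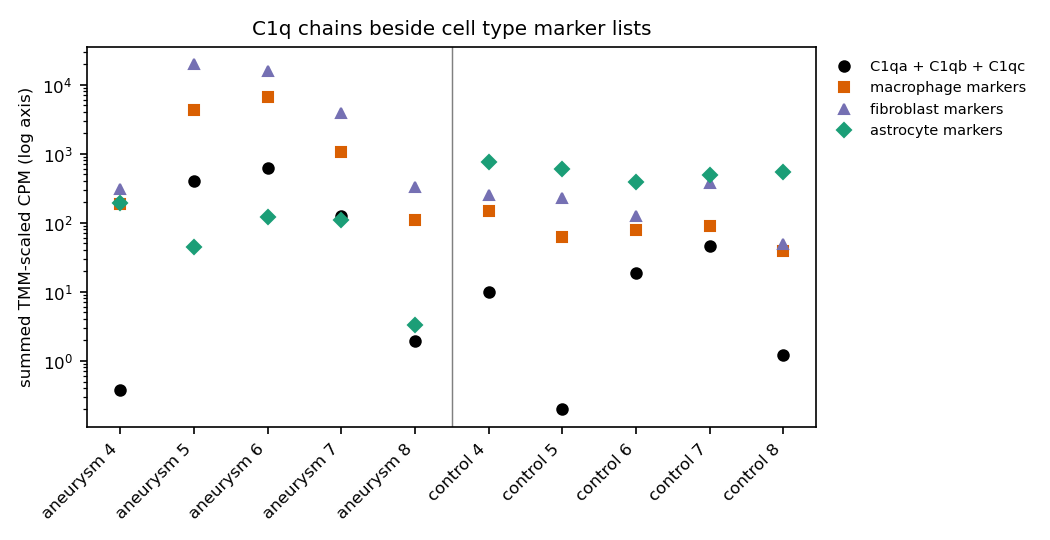
Summed TMM-scaled CPM (log axis) of the C1q chains and of the macrophage, fibroblast and astrocyte marker lists in each of the 10 samples. C1q, macrophage and fibroblast sums are high in aneurysms 5 to 7, and the astrocyte sum is higher in every control (389 to 762) than in every aneurysm (3.26 to 192).

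C1r, the protease that C1q activates first, had 301, 2105, 757, 98 and 0 gene reads in aneurysms 4 to 8 and 208, 28, 65, 1 and 11 in the controls (log2 fold change 2.62, standard error 1.18, adjusted p = 0.220 from edgeR). It was present in 4 of 5 aneurysms and in every control, so the groups overlapped. C1s, the protease that C1r activates, had exon reads in aneurysm 5 (308) and in control 4 (3), and C2 had 836 gene reads in the aneurysms against 362. Only 1.34% of the C2 reads were unique, so its counts are uncertain. Its gene overlaps the row Cfb_1 on chromosome 20, and the part of this overlap in the low unique share was not tested. C2 had 0, 208, 0, 628 and 0 gene reads in aneurysms 4 to 8. Cfb_1, which is not a member, had 231, 193, 164, 0 and 345 gene reads in aneurysms 4 to 8 and 141 in control 8, with 0 in the other 4.

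The lectin pathway proteases gave no difference past the test. Masp1 had 3, 152, 190, 20 and 0 gene reads in the aneurysms and 135, 59, 114, 64 and 76 in the controls (log2 fold change -0.97, standard error 1.63, adjusted p = 0.873 from edgeR). On gene reads it ran from 11.1 to 31.7 CPM in the controls and from 0 to 36.9 CPM in the aneurysms. Its exon reads were 0, 104, 0, 0 and 0 in the aneurysms and 135, 14, 9, 35 and 22 in the controls. The log2 fold change on exon reads was -2.95 (standard error 2.73, adjusted p = 0.591 from edgeR). Ranks of the exon CPM gave an unadjusted p = 0.0238 (two-sided exact permutation test), and 0 genes passed that test after adjustment. Masp2 had 64, 3, 155, 1 and 74 against 49, 24, 3, 1 and 9, and 0 of these reads lay on an exon.

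C3, on which all pathways meet, and factor D, the protease that starts the alternative loop, were almost without reads. C3 had 56 gene reads in aneurysm 5, 1 in aneurysm 8 and 0 in the other 8 samples, at least 14.0-fold above 3 reads over the control group. This rests on 1 library, and the adjusted p was 0.159 (edgeR). Cfd, which encodes factor D, had 71 reads in aneurysm 5, 2 in aneurysm 6 and 15 in control 4 (log2 fold change 1.36, standard error 2.27, and -2.09 without aneurysm 5). Cfp, which encodes properdin, the stabiliser of the alternative pathway convertase, had 86, 241, 19, 48 and 0 gene reads against 142, 10, 0, 136 and 49, so the groups overlapped on gene reads. Its exon reads, however, lay almost wholly in the aneurysms (260, of which 241 in aneurysm 5, against 2), and 99.4% of its control reads were on introns.

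The terminal components, which build the membrane attack complex, were the role in which every fitted difference on gene reads was negative (4 of 4, median log2 fold change -1.12). On gene reads none passed the test (0 of 4 also at an unadjusted p under 0.05, with DESeq2 and with limma-voom). The signs differed on exon reads, where the log2 fold change was 0.46 for C6, 1.37 for C9 (on 1 read) and -4.64 for C7 (on 13 reads). None of these passed with edgeR, and C5 had 0 exon reads. Without control 7, 2 of the 4 differences were negative and the median was -0.14; 3 of 4 were negative without aneurysm 6, without both samples numbered 8, with limma-voom and with the replicate block. C5, the precursor of C5a, had 2, 12, 0, 2 and 3 gene reads in the aneurysms and 21, 4, 1, 38 and 13 in the controls, all on introns (log2 fold change -2.17, standard error 2.53, adjusted p = 0.773 from edgeR). C6 had 187, 158, 0, 153 and 1 against 35, 77, 20, 179 and 66, with exon reads in aneurysms 5 (2) and 7 (153) and in control 5 (70). C7 was among the members with the most gene reads, with 543, 20, 719, 257 and 1 against 598, 320, 141, 1489 and 119 (log2 fold change -0.97, standard error 0.98, adjusted p = 0.708 from edgeR). Of these reads 99.7% lay on introns, and the only exon reads were 13 in control 4. C9 had 16 gene reads in the aneurysms and 31 in the controls, with 1 exon read in all.

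Of the complement regulators, C1 inhibitor and CD59 carried most of the reads. Serping1, which encodes C1 inhibitor, the serpin that shuts off C1r, C1s and the kallikrein system, had 1019, 2020, 1031, 91 and 0 gene reads in aneurysms 4 to 8 and 260, 49, 1, 189 and 0 in the controls. Aneurysms 4, 5 and 6 were above every control, aneurysm 7 was not, and the mean was 106 ± 92.7 CPM against 17.5 ± 20.3 CPM (SD, n = 5 each). The log2 fold change was 2.59 (standard error 1.08, unadjusted p = 0.0161, adjusted p = 0.165 from edgeR). Cd59, which encodes the membrane protein that blocks the attack complex, had 879, 786, 106, 206 and 0 against 216, 3, 0, 99 and 0 (log2 fold change 2.13, standard error 1.35, adjusted p = 0.486 from edgeR). Aneurysm 4, which had few C1q reads, was thus high in both regulators. Cd46 and Cd55, which encode membrane regulators of the C3 convertases, had 285 and 140 gene reads in all, of which 0 and 11 were on exons, and Cfi, the gene of the soluble protease factor I, had 4 reads.

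The anaphylatoxin receptors differed in where their reads lay. C5ar1, the receptor of C5a and the receptor that the study followed, had 0, 421, 264, 518 and 1 gene reads in aneurysms 4 to 8 and 213, 16, 0, 1 and 0 in the controls (log2 fold change 2.26, standard error 1.49, adjusted p = 0.515 from edgeR). Control 4 held most of the control reads, and the log2 fold change was 5.45 without it (adjusted p = 0.223 from edgeR) and 1.49 without aneurysm 7. All 230 control reads were on introns, against 35.2% of those in the aneurysms. On exon reads (285, 263 and 232 in aneurysms 5, 6 and 7) the aneurysms were at least 129-fold above 3 reads over the control group, and the adjusted p was 0.175 (edgeR). The pattern of at least 10 exon reads in 3 or more aneurysms with 0 in every control, described after it had been seen for C5ar1, was met by 87 of 12722 genes (0.684%). C3ar1, the C3a receptor, had 250, 356, 0, 60 and 0 gene reads in the aneurysms and 1 in the controls, a ratio of 491 (95% counting interval 87.8 to 19400, adjusted p = 0.159 from edgeR, 0.012 from DESeq2). Of its aneurysm reads 66.1% were on introns, among them all 250 of aneurysm 4. Its exon reads were 225 in aneurysm 5, 1 in aneurysm 7 and 0 elsewhere, so on exons the difference rests almost wholly on 1 library. C5ar2, the second receptor of C5a, had 55, 0, 3, 1 and 9 against 189, 1, 0, 1 and 0, all on introns. The exon reads of C5ar1 and nearly all of those of C1qc lay in the same 3 lesions. In these the macrophage markers summed to 1040 to 6600 CPM and the fibroblast markers to 3890 to 19700 CPM. The neutrophil list summed to 1.36 to 2.33 CPM in the same lesions (Csf3r, Mmp8 and Cxcr2 had reads there). By protein staining, the study saw part of the C5ar1 signal of rupture-prone lesions on cells positive for myeloperoxidase. Reads of the marker genes do not measure that protein. The part of any of these cell types was not tested.

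**Figure D4:**
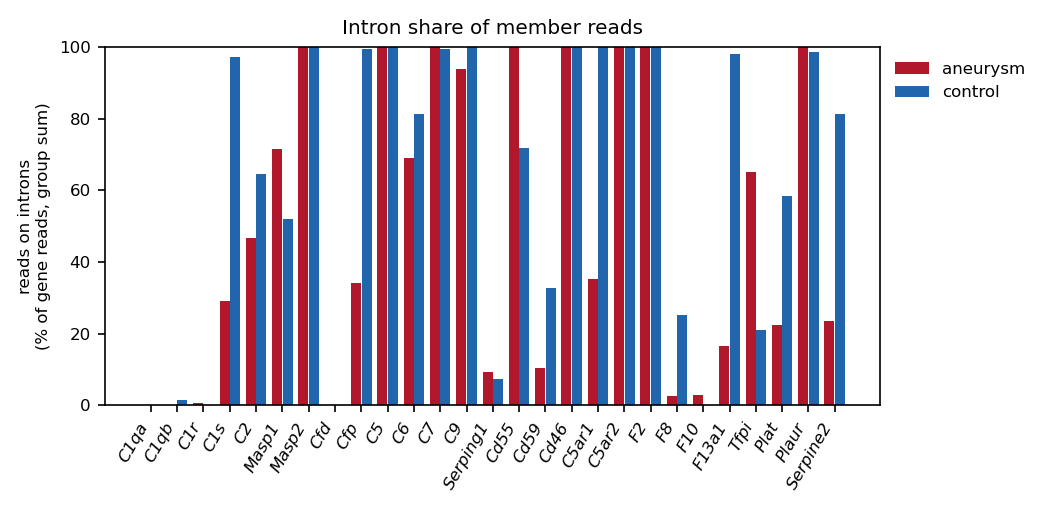
Share of gene reads that lay on introns (% of the group's summed gene reads) for members with at least 10 gene reads in each group, as bars for the aneurysms and the controls. C1qa, C1qb, C1r and Serping1 are read on exons in both groups; C5, C7, Cd46, C5ar2, F2 and Masp2 on introns in both; Cfp, C5ar1, C1s and F13a1 on exons mostly in the aneurysms.

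The coagulation factors gave no call on gene reads (0 of 6 with reads in either direction, 0 at an unadjusted p under 0.05, 0 with limma-voom, and 1 with DESeq2). F13a1, which encodes the A subunit of the fibrin cross-linking factor XIII and is known to be expressed in macrophages, had the most reads of the role: 17, 2213, 493, 255 and 1 in the aneurysms and 38, 2, 13, 220 and 69 in the controls. The log2 fold change was 2.19 on gene reads (standard error 1.18, adjusted p = 0.363) and 6.41 on exon reads (standard error 2.30, adjusted p = 0.175, both from edgeR), since 98.0% of the control reads but 16.5% of the aneurysm reads were on introns. Its exon reads were 1921, 366 and 201 in aneurysms 5, 6 and 7, 5 in control 6, 2 in control 8, and 0 in the other 5 samples. These were the lesions in which the exon reads of C5ar1 lay.

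F5, which encodes the cofactor of factor Xa, had 4, 197, 114, 4 and 4 gene reads against 0, 2, 0, 3 and 2 (log2 fold change 4.61, standard error 2.62, adjusted p = 0.399 from edgeR and 0.0191 from DESeq2), with exon reads in aneurysms 5 (65) and 6 (114) alone. F8, the gene of the cofactor of factor IXa, had 3, 200, 333, 1 and 11 against 2, 29, 2, 44 and 38, so aneurysms 5 and 6 were above every control in CPM and the other 3 were not. The remaining factors were scarce: F2, which encodes prothrombin, had 179 gene reads with 0 on exons, F10 had 105 gene reads, of which 70 were in control 5, and F3, which encodes tissue factor, had 50. The liver markers, a list of 5, summed to at most 1.86 CPM in the aneurysms, 82.4 and 38.8 CPM in controls 6 and 7 and at most 1.04 CPM in the other controls; Apoa1 had 276 and 223 reads in controls 6 and 7 and Alb had 20 in control 6.

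Of the thrombin receptor and the anticoagulant regulators, Tfpi, the inhibitor of the tissue factor pathway, had 605, 254, 258, 1 and 0 gene reads in the aneurysms and 8, 1, 31, 75 and 9 in the controls (log2 fold change 2.46, standard error 1.66, adjusted p = 0.526 from edgeR). Aneurysms 4, 5 and 6 were above every control on gene reads, but exon reads were present only in aneurysms 5 (133) and 6 (257) and in controls 6 (30) and 7 (68). Thbd, which encodes thrombomodulin, the endothelial cofactor that turns thrombin toward protein C, has 1 annotated exon and so can have no intron reads. It had 6, 285, 0, 16 and 0 reads against 2, 0, 0, 0 and 0, a ratio of 113 (95% counting interval 31.0 to 938, adjusted p = 0.291 from edgeR). Endothelium markers summed to 40.4 to 201 CPM in the aneurysms and 84.5 to 232 CPM in the controls (5 of 5 with reads in both), with 136 CPM in aneurysm 5. Within that list Kdr, Tek, Cldn5 and Flt1 had 231, 70, 116 and 1038 reads in aneurysm 5, more than in any other aneurysm before scaling. Cdh5 went the other way, with 45 reads in aneurysm 5 and 232 in aneurysm 4. Aneurysm 5 was also the largest library (7352626 gene reads, TMM factor 1.50). Flt1 had 983 reads in the smaller library of aneurysm 6 (4622301 gene reads, TMM factor 1.11). After scaling, the list sum was highest among the aneurysms in aneurysm 6 (201 CPM), which had 0 Thbd reads. Tek had more reads in controls 4, 6 and 7 (121, 109 and 116) than in aneurysm 5. The part of endothelial content in the Thbd reads was not tested. F2r, the thrombin receptor, gave 3 aneurysm reads and 7 control reads, 0 of them on exons, too few to show a difference at this depth.

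In the plasminogen system the 2 activators went different ways, and neither passed the test. Plat, which encodes tissue-type plasminogen activator, had 36, 323, 2, 0 and 0 gene reads in the aneurysms and 152, 75, 270, 5 and 35 in the controls. It was present in every control and, above 2 reads, in aneurysms 4 and 5. In CPM, 4 of the 5 aneurysms lay below controls 4, 5, 6 and 8. The log2 fold change was -1.92 on gene reads (standard error 1.66, adjusted p = 0.657) and -1.30 on exon reads (standard error 2.43, adjusted p = 0.836, both from edgeR). Of its reads 56.1% were unique, and on unique reads the log2 fold change was -0.74; it was -4.31 without aneurysm 5 and -1.02 without control 6. Plau, which encodes urokinase, had 71 reads in aneurysm 5, 216 in aneurysm 6 and 0 in the other 8 samples, all on exons. This was at least 70.5-fold above 3 reads over the control group (adjusted p = 0.159 from edgeR, 1.18e-10 from DESeq2). That DESeq2 value goes with a log2 fold change of 22.29 (standard error 3.03), against 8.70 from edgeR. Over the alternatives the log2 fold change of Plau ran from 2.69 to 22.29. With 0 reads in every control its size is not fixed by these counts. Plaur, the urokinase receptor, had 4, 161, 0, 187 and 0 against 0, 27, 1, 42 and 0, of which 1 read was on an exon. Plg, which encodes plasminogen, had 24 exon reads in aneurysm 6 and 9 intron reads in all, with at most 3 in any control.

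**Figure D5:**
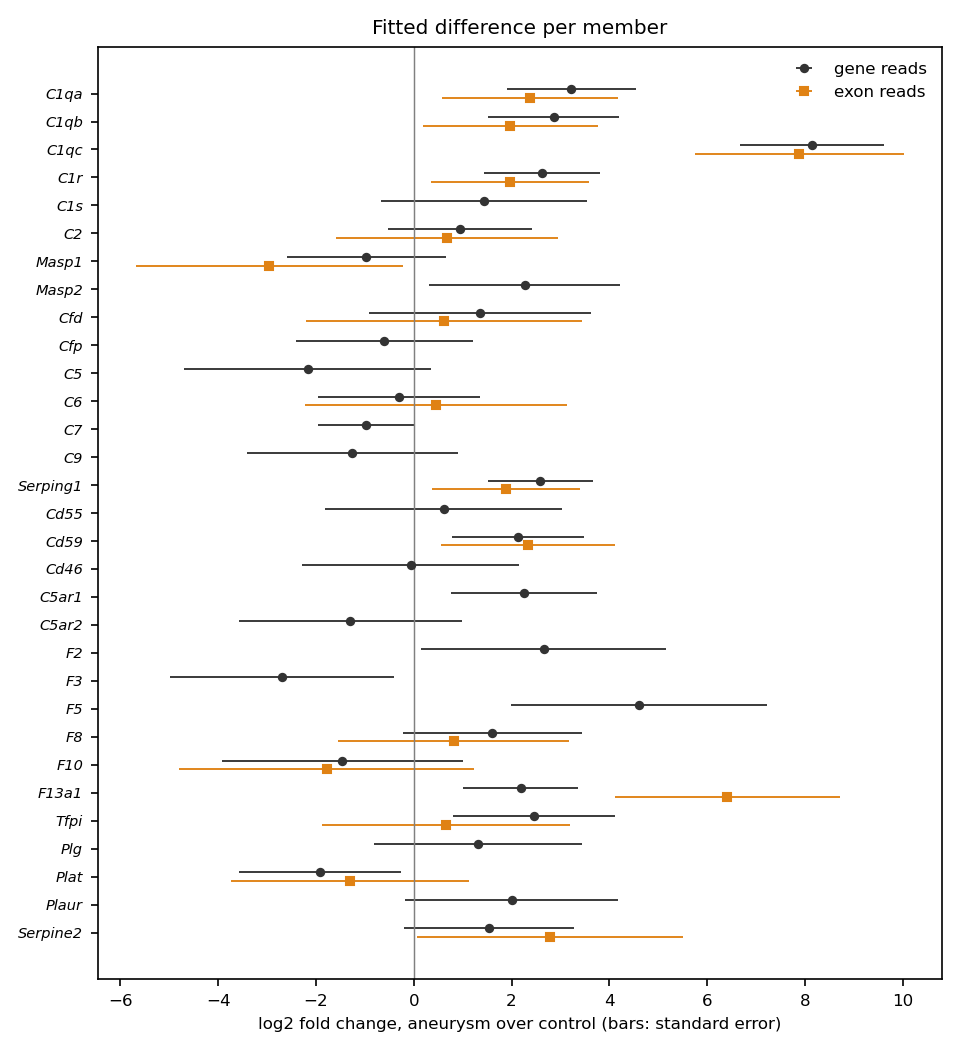
Log2 fold change of each member, aneurysm over control, from edgeR on gene reads (circles) and on exon reads (squares), for members with more than 3 reads in each group; bars are standard errors. C1qc lies at 8.15 on gene reads and 7.89 on exon reads, and F13a1 moves from 2.19 to 6.41 when exon reads are counted.

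Of the serpins that act on fibrinolytic proteases, Serpine2, which encodes protease nexin-1, an inhibitor of thrombin and of both plasminogen activators, had 4, 956, 36, 33 and 2 gene reads in the aneurysms and 143, 47, 1, 2 and 1 in the controls (log2 fold change 1.54, standard error 1.74, adjusted p = 0.760 from edgeR). Aneurysm 5 held 767 of its 825 exon reads, and without that sample the log2 fold change was -0.85. Serpinf2, the gene of alpha2-antiplasmin, had 1 read.

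Exon-junction reads, which only spliced transcripts give, were few: 977 in the aneurysms and 254 in the controls over all members, in 9 members of the former and 6 of the latter. Of the members' gene reads, 22.4% lay on introns in the aneurysms and 71.0% in the controls; per library the share ran from 10.6% in aneurysm 5 to 96.2% in aneurysm 8 and from 58.4% to 84.3% in the controls. For all genes it was 32.8% to 49.8% in every library. Of the 36 members with at least 10 gene reads, 10 had over 90% of them on introns and 6 had 0 exon reads.

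Other genes of the same pathways, listed by textbook membership, gave no call with edgeR on gene reads. Of 43 with reads, 0 were higher and 0 lower, beside 0.581% and 0.198% of all genes. At an unadjusted p under 0.05 (edgeR), 9 were higher (20.9%, beside 8.14% of all genes) and 2 lower (4.65%, beside 7.26%). DESeq2 called 3 higher, beside 1.56% of all genes, and limma-voom 0, beside 0.216%. The median log2 fold change of these 43 was 0.08, beside 1.58 for the members. Of them, 1 is given after its values were seen. Fcnb, which encodes ficolin B, a lectin pathway recognition molecule of myeloid cells, had 79, 149 and 128 reads in aneurysms 5, 6 and 7 and 0 elsewhere.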

How the data were processed

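The authors sequenced poly(A)-selected RNA (TruSeq stranded mRNA kit, paired ends of 75 bases, NextSeq500), aligned the reads to the build Rnor6 in CLC genomics workbench, version 11, and deposited counts per gene with no normalization; strand setting, duplicate handling and annotation release: not given in the sources used here. For all 22081 genes (0 unnamed), exon and intron reads summed to the gene reads. The deposited columns of the authors' own comparison (p-values and fold changes) and their normalized values were not used, and 0 sample columns could not be matched.

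All genes with at least 1 read (16700 on gene reads, 12722 on exon reads) were compared without a low-count filter in R (4.3.3) by edgeR (4.0.16), with TMM scaling, the quasi-likelihood test, Benjamini-Hochberg adjustment over all genes and a threshold of 0.05; limma (3.58.1) and DESeq2 (1.42.0) were alternatives. Python (3.11.15) with pandas (2.3.3), numpy (2.4.6), scipy (1.17.1) and matplotlib (3.10.9) made tables and plots. CPM use TMM-scaled libraries, and log2 CPM a prior count of 2. Ranks were compared by two-sided exact permutation over all 252 splits (smallest p 0.00794). Ratios are of summed reads over summed scaled libraries, with a floor of 3 reads over a group and exact binomial 95% counting intervals. The fit was tested on simulated data. Their spread between samples was smaller than that of these data, so error rates of the fit here remain unknown. Lesion and control tissue came from the same animals per the study's methods, but no source used here says whether samples of 1 group are separate animals or whether a shared number marks 1 animal, so p-values cover the spread among these samples, which may be technical. Every pair within a group differed beyond counting noise (lowest chi-square/df 55.8).

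The members and lists were chosen with earlier results of these data known. Values per sample were given for members past the threshold, for up to 3 members of each of 10 roles with the most gene reads, and for C3, C5, C5ar1, Plat and Plg. Of 54 other pathway genes, 51 had a row; of the markers, 1 fibroblast and 1 endothelium gene had none. Some promoters and pathway genes are not reported here.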

Additional observations from a re-analysis of the deposited data

Results flagged for a closer look

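Among 55 groups of 5 samples checked over the named members, the highest or lowest log2 CPM stood apart from the other 4 by Dixon's criterion in 8 (14.5%), where chance gives about 1 in 20; most are groups in which the others are at or near 0 reads, and these values were not pursued. C5ar2 had 189 gene reads in control 4 and 0 or 1 in the other 4. Cfd had 71 reads in aneurysm 5, with 0 to 2 in the other aneurysms, and 15 in control 4, with 0 in the others. Plg had 24 reads in aneurysm 6 and 0 or 1 in the others. F2r had 2 reads in aneurysm 8, and Serpinf2 had 1 read in the same library, with 0 or 1 elsewhere in the group. C3ar1 had 1 read in control 5, and Thbd had 2 reads in control 4, with 0 in the other 4 samples of the group in each case.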

How the results depend on the processing

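The count of 1 member called higher on gene reads (C1qc) was the same in 16 of 20 alternatives, including each sample left out (1 to 1) and the fit without both samples numbered 8; it was 4 with DESeq2 (C1qc, C3ar1, F5 and Plau), 0 with filterByExpr, which removed C1qc from the test, 0 with limma-voom and 0 with the replicate block. On exon reads the count of 0 became 2 with DESeq2 and 2 with limma-voom (C1qc and C5ar1), and 1 (C1qc) with library-size scaling, with at least 10 reads in at least 3 samples, without both samples numbered 8, without aneurysm 4 and without aneurysm 8 (range 0 to 1 with single samples left out); upper-quartile scaling could not be fitted there, since the upper quartile of exon reads was 0. Other pathway genes called higher went from 0 to 3 with DESeq2 and to 1 (F11) with upper-quartile scaling. No alternative called a member lower or separated the groups of any member.

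Lesion and control tissue came from the same animals, but whether a shared number marks 1 animal is not stated; deviations of same-numbered samples from the group means correlated by -0.013 to 0.115, which does not settle the pairing. With the number as a replicate block, 0 members were called on gene reads and 0 on exon reads, beside 18 genes higher and 6 lower in all, and the log2 fold change of C1qc was 6.35 (adjusted p = 0.678 from edgeR).

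Of 28 named members with a fitted log2 fold change, 8 changed sign in some alternative, none of them past the threshold. For C5ar2 (-1.30) it was 0.51 with upper-quartile scaling, 1.18 with limma-voom, 0.58 with the replicate block and from -2.03 to 4.39 with single samples left out. For Plg (1.32) it was -0.43 with limma-voom, -1.12 with the block and -2.44 to 1.64 with samples left out. Cd46 (-0.06) gave 0.12 with the block and -1.01 to 1.86 with samples left out. C6 (-0.30) gave 0.23 without both samples numbered 8 and -0.81 to 0.05 with single samples left out. F2r (-0.38) gave 1.99 with upper-quartile scaling, Cfp (-0.60) 0.18 with limma-voom, Cfd (1.36) -2.09 to 5.90 and Serpine2 (1.54) -0.85 to 2.93 with samples left out. The median over all genes on gene reads was 0.10, 0.51 with upper-quartile scaling and 0.30 with DESeq2, which differs in its model as well as its scaling. The share of C1qc among the C1q reads of the controls was 1.48% to 3.91% with single controls left out, an alternative chosen after seeing the data. Few reads limit every value at these depths, and intervals and floors cover counting error only.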
